A study of Mus musculus with 12 samples.

Results

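The comparison set small intestine from mice of the group labelled B+A10, given busulfan and AOS, against the group labelled AOS0, given neither, to ask which differences from untreated tissue were present with AOS given. It used 6 of the 12 libraries of the series, 3 in each group, chosen by their treatment label, and 12329 of the 16942 genes in the table passed the filter on low counts and were tested. All 12 libraries are sequenced total RNA of small intestine from ICR mice, an outbred strain. The other 2 groups were AOS10, given AOS without busulfan, and B+A0, given busulfan without AOS, and each also had 3 libraries. The labels call the treatments AOS and B (busulfan in the series description), do not spell out AOS, and give no age, no unit for the 10 in the group names and no timing. Nothing in them states that each library is a different animal, and the p-values therefore measure only the spread between libraries, which may be technical.

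Busulfan is an alkylating drug that crosslinks DNA and is used to ablate bone marrow and germ cells; the intestinal lining, which renews itself from crypt stem cells, is among the tissues it injures. In published work with busulfan AOS stands for alginate oligosaccharides, short sugar chains made from seaweed alginate; the labels themselves do not expand it. Cells meet misfolded protein with separate programmes: in the cytosol heat shock factor induces chaperones of the HSP70, HSP40 and HSP90 families, and in the endoplasmic reticulum (ER) the unfolded protein response induces ER chaperones and the machinery that extracts and degrades misfolded proteins.

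Summed read counts ran from 13560232 to 14996023 in the AOS0 libraries and from 16014123 to 16760965 in the B+A10 libraries, so the totals of the groups did not overlap; the part of this gap in the results was not tested. Levels are given as CPM, read counts set to a common library size after scaling by the trimmed mean of M values, with scaling factors between 0.969 and 1.047. Markers of small intestinal epithelium were high in all 6 libraries, with villin (Vil1) between 1838 and 2534 CPM. The liver gene Alb stayed at or under 0.125 CPM and Serpina1a was at 0 in these 6 libraries. Of the other liver genes checked, Fgb was at 0, while Ttr and Apoh were low but present in all 6. Ttr was between 1.03 and 1.42 CPM and Apoh between 0.546 and 1.26 CPM. Car4 and Retnlb, which are more typical of the large intestine, were also present, Retnlb between 188 and 317 CPM.

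B+A10 tissue differed from untreated tissue mainly by rises, and chaperone genes of the cytosol and the ER were the largest groups among them. A total of 118 genes (0.957% of those tested) passed an adjusted p of 0.05 in edgeR's quasi-likelihood test with Benjamini-Hochberg adjustment, 93 of them higher (0.754%) and 25 lower (0.203%) in B+A10. The changes were moderate: 24 of the rises and 5 of the falls were over 2-fold, and the median log2 fold change was 0.69 among the rises and -0.64 among the falls. All 118 had groups that did not overlap, a property shared by 17.9% of all genes tested, and 15.7% of all genes had an unadjusted p under 0.05. In limma on log2(FPKM + 1) the 98 calls split differently, 50 higher and 48 lower.

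The number of calls depended on single libraries. Leaving out AOS0 replicate 3 left 12 calls, AOS0 replicate 1 left 22, AOS0 replicate 2 left 42, B+A10 replicate 1 left 30 and B+A0 replicate 2 left 74. The count rose to 763 when B+A10 replicate 3 was left out and to 180 for B+A0 replicate 1, whose group enters through the shared estimate of the spread. When only the 6 compared libraries were fitted, 18 genes were called. A set of 10 of the 118 genes passed under the main test and all 16 alternatives: Hsph1, Hspa8, Herpud1, Syvn1, Hyou1, Creld2, Banp, P4ha1, Chac1 and Zbtb40. All 10 were higher in B+A10. For 40 called genes chosen by the naming rule (other list members named below are not counted), leaving out AOS0 replicate 1, 2 or 3 ended the call of 24, 21 and 28, B+A10 replicate 1 of 20, replicate 2 of 6, and B+A0 replicates 1, 2 and 3 of 1, 9 and 4; B+A10 replicate 3 ended none. Fitting only the compared groups ended 26 of these 40 calls, a replicate block 11 and limma 6.

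Busulfan without AOS gave more calls against the same AOS0 libraries: 449 genes (3.64%), 210 higher (1.70%) and 239 lower (1.94%). Because both comparisons use the 3 AOS0 libraries, the genes called in both are given as a description. They numbered 72 (0.584% of genes tested), 56 higher (0.454%) and 16 lower (0.130%) in both, which is 61.0% of the B+A10 list and 16.04% of the longer B+A0 list, and none was called in opposite directions. Of the B+A0 rises 26.7% were called again in B+A10, and of the B+A0 falls 6.69%. The 56 shared rises had a median log2 fold change of 0.77 in B+A10 and 0.73 in B+A0, and the 16 shared falls -0.60 and -0.63. Leaving out AOS0 replicates 1, 2 and 3 in turn gave 14, 28 and 8 in place of 72, and the same for B+A0 gave 109, 25 and 14. For B+A10 it was 27 with replicate 1 left out and 242 with replicate 3 left out.

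The 2 busulfan groups were also compared directly. No gene was called in B+A10 against B+A0 in edgeR's quasi-likelihood test; 1210 genes (9.81%) had an unadjusted p under 0.05, and the smallest adjusted p was 0.0826. Among the 72 genes called in both comparisons, 8 had an unadjusted p under 0.05 in this direct contrast. Among the 118 it was 37. Both sets were chosen partly from the libraries compared here. The 72 were chosen for differing from AOS0 in the same direction in both busulfan groups, which favours small differences between those groups. Both counts are therefore a description.

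**Figure D1:**
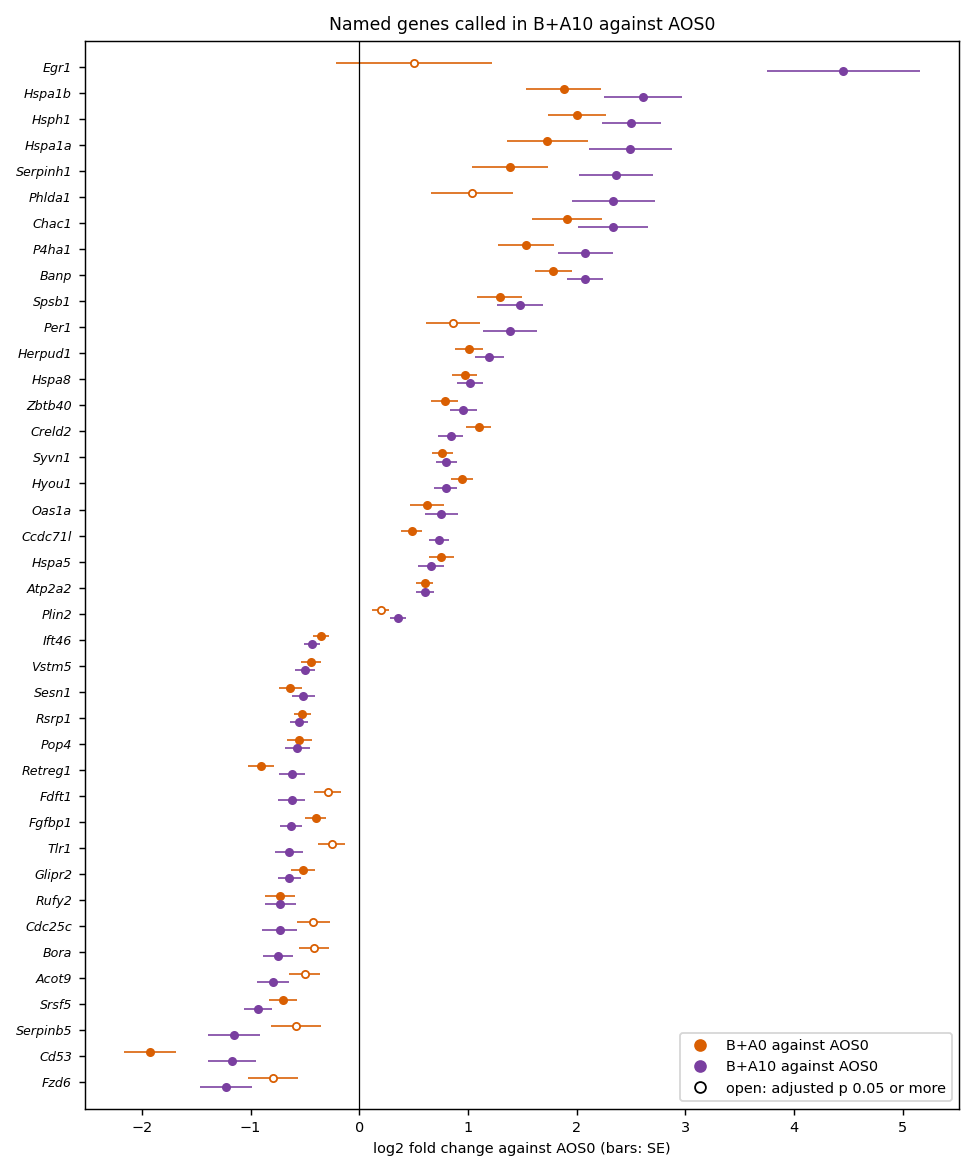
Fitted log2 fold changes against AOS0 (x axis, bars are standard errors) of the named genes called in B+A10 (rows), for B+A0 in orange and B+A10 in purple; open symbols have an adjusted p of 0.05 or more. Most pairs of symbols lie close together, while Egr1 is at 4.45 in B+A10 and at 0.50 in B+A0.

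Heat shock genes were the list with the most calls. Of the 22 genes on it 20 were tested, Hspb1 and Cryab being too low, and 12 were higher in B+A10, against 0.754% of all genes tested; the other 8 were not called and all 20 estimates were above 0. The median log2 fold change over the 20 was 1.01, beside 0.00 over all genes tested. In B+A0 against the same untreated libraries 14 of the 20 were higher, against 1.70% of all genes, with a median of 0.845, and none was called between the 2 busulfan groups, where 2 had an unadjusted p under 0.05. The summed level of the list was 7164, 7708 and 6742 CPM in AOS0 and 15546, 10705 and 14467 CPM in B+A10. Each B+A10 library was above each untreated one.

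Hsph1 encodes HSP110, a large chaperone that helps HSP70 release its client proteins, and lies at chr5:149616843-149636498 (GRCm38). It was at 91.1, 123 and 81.7 CPM in the AOS0 libraries, 268, 433 and 488 CPM in B+A0 and 679, 342 and 660.3 CPM in B+A10. Every library of both busulfan groups exceeded every untreated one, and B+A10 replicate 2 was the lowest of its group. In B+A10 the log2 fold change was 2.50 (adjusted p = 0.0028, SE 0.27), a 5.67-fold rise, and 2.00 (adjusted p = 0.00517, SE 0.27) in B+A0. Directly, B+A10 exceeded B+A0 by 0.50 (adjusted p = 0.547, SE 0.25), which was not called.

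Hspa8, the constitutive cytosolic HSP70 that folds newly made proteins, was already abundant in untreated tissue. Its level was 2188, 2239.9 and 1986 CPM in AOS0 and 4695, 3621 and 4672 CPM in B+A10, means of 2138 ± 134 and 4329 ± 614 (SD, n = 3). The groups were far apart relative to their spread, with a log2 fold change of 1.02 (adjusted p = 0.00299, SE 0.12). In B+A0 it was 0.97 (adjusted p = 0.00399, SE 0.12), and the busulfan groups differed by only 0.05 (adjusted p = 0.927, SE 0.12).

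Hspa1a and Hspa1b are the stress-inducible HSP70 genes; they sit next to each other at chr17:34969359-34972156 and chr17:34956429-34959238 and are nearly identical in sequence, so how reads were divided between them is uncertain. Hspa1b was at 136, 206 and 138 CPM in AOS0, 354, 592 and 817 CPM in B+A0 and 1458, 658 and 819.7 CPM in B+A10. Replicate 1 stood highest in B+A10 and the lowest B+A10 library was still above all AOS0 libraries. The log2 fold changes in B+A10 were 2.61 (adjusted p = 0.00639, SE 0.36) for Hspa1b and 2.49 (adjusted p = 0.0114, SE 0.38) for Hspa1a. Without AOS0 replicate 3 neither was called (adjusted p = 0.0517 and 0.0768), and Hspa1a was not called without AOS0 replicate 1 (adjusted p = 0.0682).

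The co-chaperones moved in the same direction. Dnajb1, the main HSP40 partner of inducible HSP70, was at 78.2, 93.6 and 79.1 CPM in AOS0 and 261, 157 and 173 CPM in B+A10, with a log2 fold change of 1.24 (adjusted p = 0.0141, SE 0.20). Bag3, which links HSP70 to autophagy, rose by 1.19 (adjusted p = 0.00865, SE 0.17) on the log2 scale, Dnaja1 by 1.17 (adjusted p = 0.0127, SE 0.18), the HSP110 relative Hspa4l by 1.28 (adjusted p = 0.0184, SE 0.22) and Chordc1 by 1.32 (adjusted p = 0.0107, SE 0.20). Of the HSP90 cofactors, Stip1, which joins HSP70 to HSP90, rose by 0.83 (adjusted p = 0.0177, SE 0.14) and the HSP90 activator Ahsa1 by 0.70 (adjusted p = 0.0352, SE 0.14). All these genes had B+A10 libraries above all AOS0 libraries.

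Serpinh1 encodes HSP47, a collagen chaperone of the ER that is nevertheless under heat shock factor control. It was scarce in untreated tissue at 1.23, 1.25 and 1.33 CPM and reached 10.6, 4.19 and 4.85 CPM in B+A10. Replicate 1 was far above the other B+A10 libraries, and the groups did not overlap. Its log2 fold change was 2.36 (adjusted p = 0.00771, SE 0.34), and it was not called without AOS0 replicate 1 (adjusted p = 0.0534) or AOS0 replicate 3 (adjusted p = 0.0517). AOS10 without busulfan was at 3.13, 2.85 and 3.01 CPM, also above all AOS0 libraries.

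The members that were not called included the HSP90 genes themselves. Hsp90aa1, the inducible form, was at 334, 357 and 286 CPM in AOS0 and 618, 402 and 936 CPM in B+A10, without overlap, at 1.00 (adjusted p = 0.0641, SE 0.23) on the log2 scale. Hsp90ab1, the constitutive form, had 0.56 (adjusted p = 0.0748, SE 0.14), and its value in B+A0 was 0.56 (adjusted p = 0.0427, SE 0.14). The mitochondrial chaperonins Hspd1 and Hspe1, which share a promoter region, had log2 fold changes of 0.42 and 0.40 with overlapping groups. Hsf1, the heat shock factor that drives the programme, stood at 0.30 (adjusted p = 0.163). The 12 heat shock rises became 3 on leaving out AOS0 replicate 1, 2 on leaving out AOS0 replicate 3, and 6 when only the compared groups were fitted.

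**Figure D2:**
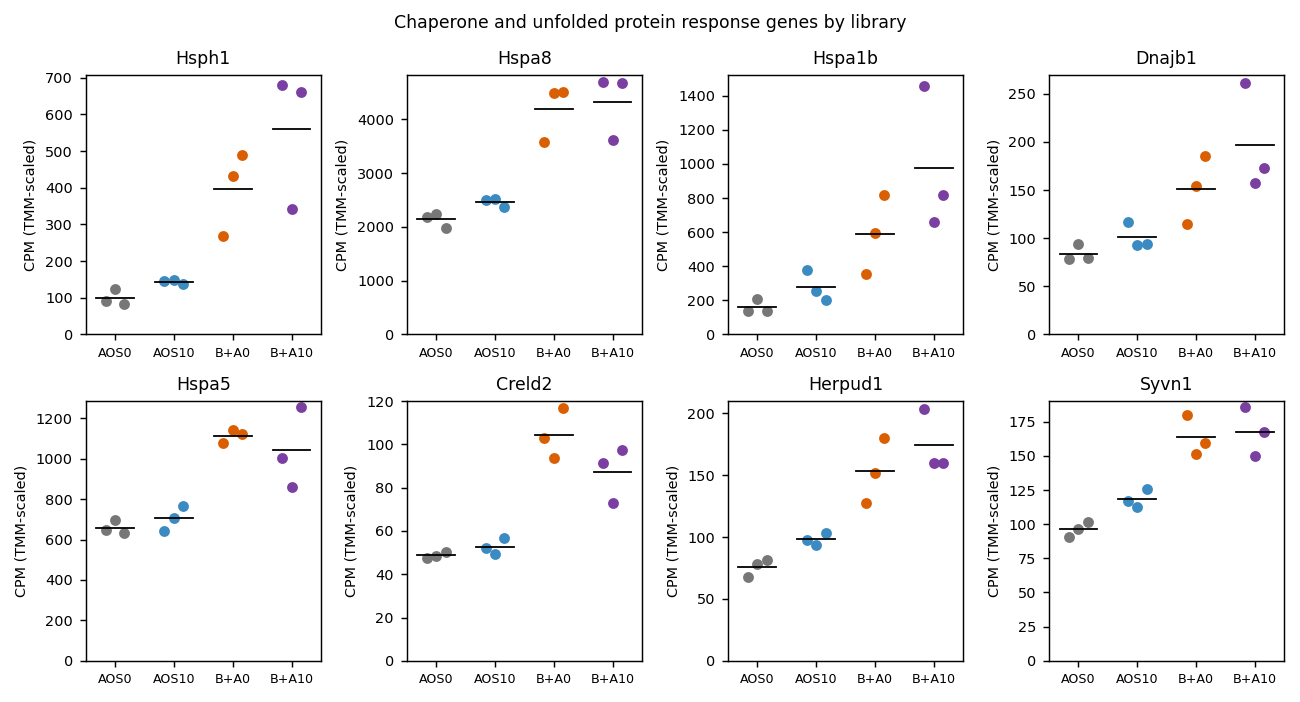
CPM (y axis, linear from 0) of 4 heat shock genes (upper row) and 4 unfolded protein response genes (lower row) in each library of the 4 groups (x axis); points are libraries and bars group means. In each panel the B+A10 points lie above all AOS0 points and among or near the B+A0 points, as for Hspa8 at 4695, 3621 and 4672 CPM in B+A10.

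A part of the unfolded protein response list was also higher in B+A10, by smaller factors. Of 24 genes tested 8 rose and none fell, against 0.754% and 0.203% of all genes, and 16 were not called. The median log2 fold change was 0.34 in B+A10 and 0.38 in B+A0, where 13 rose and 1 fell, against 1.70% and 1.94% of all genes; the one that fell, Crot, is a peroxisomal carnitine acyltransferase and no part of the response. Their summed level was 6534, 6794 and 6930.1 CPM in AOS0 and 8640.1, 7635 and 9521 CPM in B+A10, without overlap. No member was called between B+A10 and B+A0, where 3 had an unadjusted p under 0.05. The 8 rises became 4 on leaving out either AOS0 replicate 1, AOS0 replicate 3 or else B+A10 replicate 1, also 4 with only the compared groups fitted, and 13 in DESeq2.

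Some of the called genes hold, near their start, letters of elements known from these responses. The ER stress response element, searched on both strands as CCAAT and CCACG separated by any 9 bases, within the RefSeq promoters of GRCm38.p6, 250 bases before to 50 after a start, was found in Creld2, Hspa5 and Syvn1, which is 3 of the 7 called members with a promoter in the table, in 8 of 22 tested members and in 18 of 9897 tested genes (0.182%). The related element, ATTGG and CCACG separated by any 1 base, which shares the CCAAT (the other strand of ATTGG) and CCACG letters with it, was found in Herpud1 and in 9 of the 9897 (0.0909%). The heat shock element, as alternating GAA and TTC blocks, 3 in a row with any 2 bases between them, was in Hsph1 and Chordc1 among 11 called heat shock members with a promoter, in 4 of 16 tested members and in 54 of the 9897 genes (0.546%). Such a match describes the letters in this window and does not show that a factor binds there. The promoters of the 4 ER genes and of Hsph1, at chr2:34771840-34772139, chr15:88819396-88819695, chr19:6046326-6046625 and chr8:94386179-94386478 on the plus strand and chr5:149636287-149636586 on the minus strand, are printed because these genes are described next or above; capitals mark the match, which begins 65, 126, 44 and 52 bases before the start in the ER genes and 36 bases after one of the annotated starts in Hsph1.
Hspa5: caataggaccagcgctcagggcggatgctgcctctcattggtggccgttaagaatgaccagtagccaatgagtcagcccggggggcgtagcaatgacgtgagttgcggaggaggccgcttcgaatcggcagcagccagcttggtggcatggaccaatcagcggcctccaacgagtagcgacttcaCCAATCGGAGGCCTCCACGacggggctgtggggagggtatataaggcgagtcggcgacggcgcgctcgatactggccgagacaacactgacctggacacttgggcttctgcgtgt
Creld2: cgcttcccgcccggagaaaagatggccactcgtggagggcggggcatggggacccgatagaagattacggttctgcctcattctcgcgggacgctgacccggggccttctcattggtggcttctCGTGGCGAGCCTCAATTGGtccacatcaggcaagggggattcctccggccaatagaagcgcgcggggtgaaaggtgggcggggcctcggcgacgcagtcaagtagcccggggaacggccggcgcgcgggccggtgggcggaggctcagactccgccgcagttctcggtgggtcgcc
Syvn1: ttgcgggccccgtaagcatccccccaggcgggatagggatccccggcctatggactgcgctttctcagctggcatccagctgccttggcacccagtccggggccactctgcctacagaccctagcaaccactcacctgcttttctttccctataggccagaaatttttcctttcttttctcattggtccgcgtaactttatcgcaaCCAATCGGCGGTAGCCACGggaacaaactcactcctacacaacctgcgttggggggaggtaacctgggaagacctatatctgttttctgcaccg
Herpud1: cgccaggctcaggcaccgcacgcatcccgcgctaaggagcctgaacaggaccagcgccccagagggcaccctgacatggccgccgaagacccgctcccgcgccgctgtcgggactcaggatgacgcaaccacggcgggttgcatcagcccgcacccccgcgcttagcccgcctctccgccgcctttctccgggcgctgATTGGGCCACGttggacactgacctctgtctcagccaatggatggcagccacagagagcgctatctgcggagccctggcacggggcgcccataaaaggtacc
Hsph1: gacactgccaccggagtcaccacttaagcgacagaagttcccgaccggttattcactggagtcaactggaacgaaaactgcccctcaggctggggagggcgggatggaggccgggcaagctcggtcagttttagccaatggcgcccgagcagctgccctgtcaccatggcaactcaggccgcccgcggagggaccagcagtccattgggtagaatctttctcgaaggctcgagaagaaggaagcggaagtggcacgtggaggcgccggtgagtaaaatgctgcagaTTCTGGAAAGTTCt

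Herpud1, a membrane protein of the ER-associated degradation complex, had the largest rise of this list. It was at 68.1, 78.6 and 81.6 CPM in AOS0, 127, 152 and 180.4 CPM in B+A0 and 203, 159 and 160.0 CPM in B+A10. Both busulfan groups lay wholly above AOS0. On the log2 scale the rise was 1.20 (adjusted p = 0.0028, SE 0.13) in B+A10 and 1.01 (adjusted p = 0.00517, SE 0.13) in B+A0.

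Syvn1, the ubiquitin ligase HRD1 at the centre of that complex, rose from 90.5, 96.7 and 101 CPM to 186, 149.7 and 167 CPM, a log2 fold change of 0.80 (adjusted p = 0.00422, SE 0.10). Its partner Sel1l, the adaptor that brings substrates to the ligase, rose by 0.41 (adjusted p = 0.0274, SE 0.08). The luminal chaperones followed: Hyou1, an ER HSP110 relative, rose by 0.79 (adjusted p = 0.00546, SE 0.10) and Hspa5, the ER HSP70 known as BiP, by 0.66 (adjusted p = 0.022, SE 0.12). Hspa5 was at 648, 696 and 633 CPM in AOS0 and 1006, 863 and 1256 CPM in B+A10, with no overlap. Its call was lost without any 1 of the 3 AOS0 libraries (adjusted p from 0.0606 to 0.108) or B+A10 replicate 1 (adjusted p = 0.0796).

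Creld2, a secreted ER stress protein, was at 47.5, 48.6 and 50.3 CPM in AOS0, 103, 93.8 and 117 CPM in B+A0 and 91.4, 72.8 and 97.5 CPM in B+A10. The B+A10 libraries were above all untreated ones, while the B+A0 libraries stood partly higher still. It rose by 0.84 (adjusted p = 0.00631, SE 0.11) on the log2 scale in B+A10 and 1.10 (adjusted p = 0.00183, SE 0.11) in B+A0, and the direct difference of -0.26 (adjusted p = 0.484, SE 0.11) was not called. The disulfide isomerase Pdia4 rose by 0.56 (adjusted p = 0.0217, SE 0.10) and the HSP40 cofactor Dnajb9 by 0.57 (adjusted p = 0.0205, SE 0.10).

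Members called in B+A0 only included Manf, Sdf2l1, Dnajb11, Calr and the transcription factor Xbp1, whose B+A10 log2 fold changes were 0.45, 0.61, 0.44, 0.33 and 0.34 (adjusted p from 0.0547 to 0.115). These 5 had non-overlapping groups, as did 18 of the 24 members and 17.9% of all genes, and their direct differences from B+A0 were not called. Ddit3, which encodes the pro-apoptotic factor CHOP, was at 16.1, 15.02 and 16.9 CPM in AOS0 and 14.9, 13.8 and 12.9 CPM in B+A10, all below the AOS0 libraries, with a log2 fold change of -0.20 (adjusted p = 0.355, SE 0.10). Atf4 was at 0.16 (adjusted p = 0.48, SE 0.10).

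Outside these lists the gene with the smallest p-value was Banp, which encodes a nuclear DNA-binding protein (chr8:121947972-122029260). Its level was 12.7, 12.3 and 9.76 CPM in AOS0, 22.9, 22.7 and 22.6 CPM in AOS10, 34.8, 40.5 and 44.9 CPM in B+A0 and 60.9, 37.6 and 48.4 CPM in B+A10. The 4 groups did not overlap except B+A0 with B+A10. Against AOS0 the log2 fold change was 2.08 (adjusted p = 0.000221, SE 0.17) in B+A10 and 1.79 (adjusted p = 0.00125, SE 0.17) in B+A0. AOS10 without busulfan was 0.97 (adjusted p = 0.119, SE 0.17) above AOS0, not called, and B+A10 exceeded AOS10 by 1.11 (adjusted p = 0.0274, SE 0.16).

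P4ha1, the catalytic subunit of collagen prolyl hydroxylase, was at 4.47, 3.74 and 4.14 CPM in AOS0, 9.41, 10.4 and 15.9 CPM in B+A0 and 21.4, 11.5 and 19.3 CPM in B+A10. B+A10 replicate 2 was lowest of its group and still above all untreated libraries. This was a log2 fold change of 2.08 (adjusted p = 0.00422, SE 0.26). P4ha1 was on the list of fibroblast and matrix genes, of which 11 of 25 were tested; the other 10 were not called and the list's median was -0.29. Of those 10, Col1a1, Col1a2, Col6a1, Col6a2 and Sparc had AOS0 means of only 0.589 to 0.973 CPM. Their estimates were imprecise (SE 0.47 to 0.58). The rest were higher, up to 7.25 CPM for Vim.

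Chac1 encodes an enzyme that degrades glutathione and is induced through ATF4. It was low in AOS0 at 1.62, 1.84 and 2.00 CPM and reached 10.98, 9.32 and 7.18 CPM in B+A10, a log2 fold change of 2.33 (adjusted p = 0.00639, SE 0.32). AOS10 was intermediate at 5.59, 3.05 and 3.47 CPM. Chac1 was the only one of 20 tested integrated stress response genes to be called; the median of that list was 0.37, and 15 of 20 estimates were above 0.

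Spsb1, a substrate adaptor of an E3 ubiquitin ligase, rose by 1.48 (adjusted p = 0.00756, SE 0.21) on the log2 scale and was not called without AOS0 replicate 1 (adjusted p = 0.0534) or AOS0 replicate 3 (adjusted p = 0.0517). Atp2a2, the SERCA2 pump that fills the ER with calcium, was at 405, 451 and 468 CPM in AOS0, 629, 688 and 694 CPM in B+A0 and 704, 643 and 667 CPM in B+A10. Its rise of 0.60 (adjusted p = 0.00546, SE 0.08) differed from that in B+A0 by 0.00 on the log2 scale (SE 0.08). The zinc finger gene Zbtb40 rose by 0.96 (adjusted p = 0.00546, SE 0.12) and Ccdc71l by 0.73 (adjusted p = 0.00546, SE 0.09). When only the compared groups were fitted, Atp2a2 and Ccdc71l each had an adjusted p of 0.0601.

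Oas1a, an interferon-induced oligoadenylate synthetase, was at 172, 126 and 150.2 CPM in AOS0 and 282, 231 and 244 CPM in B+A10, a log2 fold change of 0.76 (adjusted p = 0.041, SE 0.16). The AOS10 libraries, at 353, 314 and 242 CPM, overlapped those of B+A10 and lay above AOS0. Its family has close copies, so its reads may be divided with them. It was the only called member of 19 interferon-stimulated genes tested, whose median log2 fold change was 0.51 in B+A10, 0.38 in B+A0 and 0.88 in AOS10. The call was lost without any 1 AOS0 library (adjusted p from 0.0769 to 0.14), B+A10 replicate 1 (0.187) or B+A0 replicate 2 (0.0557); DESeq2 called 6 members.

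A further 46 genes were called in B+A10 and not in B+A0, 37 higher and 9 lower. Passing the threshold in one comparison only is not a difference: these rises had a median log2 fold change of 0.59 in B+A10 and 0.31 in B+A0, and the falls -0.75 and -0.42. None was called in the direct contrast. The largest rise of all was Egr1, an immediate early transcription factor induced within minutes by growth factors and stress.

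Egr1 (chr18:34861207-34864956) was at 7.58, 6.49 and 6.36 CPM in AOS0, 9.52, 7.32 and 5.94 CPM in AOS10, 9.72, 7.51 and 11.8 CPM in B+A0 and 312, 115 and 22.02 CPM in B+A10. All 3 B+A10 libraries were above all others, but they differed from each other many times over, with a mean of 149.6 ± 148 CPM (SD, n = 3). The log2 fold change against AOS0 was 4.45 (adjusted p = 0.0131, SE 0.70), and it was not called without AOS0 replicate 1, 2 or 3 (adjusted p = 0.0762, 0.0594 and 0.0811). B+A10 exceeded B+A0 by 3.95 (adjusted p = 0.145, SE 0.67) on the log2 scale, with an unadjusted edgeR p of 5.9e-05. The summed immediate early list was 1800.0, 1292 and 842 CPM in B+A10, in the same order of libraries as Egr1, and 761, 848 and 909 CPM in AOS0, a range that held B+A10 replicate 3. Of 18 tested members 17 had estimates above 0 in B+A10, with a median of 0.44, and only Egr1 was called.

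Phlda1, a growth factor-responsive gene, had the same order of libraries, 135, 61.1 and 41.96 CPM in B+A10 against 14.8, 18.5 and 13.8 CPM in AOS0 and 27.04, 28.3 and 41.3 CPM in B+A0. Its log2 fold change was 2.34 (adjusted p = 0.0152, SE 0.38), lost without AOS0 replicate 1, 2 or 3 (adjusted p = 0.0815, 0.0508 and 0.0811). Per1, a repressor of the circadian clock that also responds acutely to hormones, was at 17.9, 17.05 and 13.5 CPM in AOS0 and 55.9, 41.9 and 29.5 CPM in B+A10. These groups did not overlap, and the change was 1.39 (adjusted p = 0.022, SE 0.25), lost without any 1 AOS0 library (adjusted p from 0.0735 to 0.0997) or B+A10 replicate 1 (adjusted p = 0.0995). In B+A0 Per1 was at 19.0, 36.7 and 32.3 CPM, also above all AOS0 libraries. The log2 fold change there was 0.86 (adjusted p = 0.0698, SE 0.25), which was not called. The AOS10 libraries, at 20.9, 23.7 and 20.3 CPM, lay above AOS0 too. Per1 was the one called gene of 20 clock genes tested, whose median was 0.02.

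Slc38a2, a neutral amino acid transporter induced by amino acid shortage, was chosen after its values were seen. It was at 131, 149.5 and 133 CPM in AOS0, 153, 178 and 175 CPM in B+A0 and 258, 198 and 227 CPM in B+A10. All B+A10 libraries lay above all B+A0 libraries, which lay above AOS0. It rose by 0.72 (adjusted p = 0.00744, SE 0.10) on the log2 scale against AOS0 and 0.43 (adjusted p = 0.255, SE 0.10) against B+A0. Plin2, which coats lipid droplets, rose slightly, by 0.35 (adjusted p = 0.0481, SE 0.08); it lost its call without any 1 AOS0 library (adjusted p from 0.111 to 0.159), B+A10 replicate 1 (0.197) or B+A0 replicate 2 (0.078). It was the one called member of 27 lipid absorption genes tested and of 25 PPAR-alpha targets tested.

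**Figure D3:**
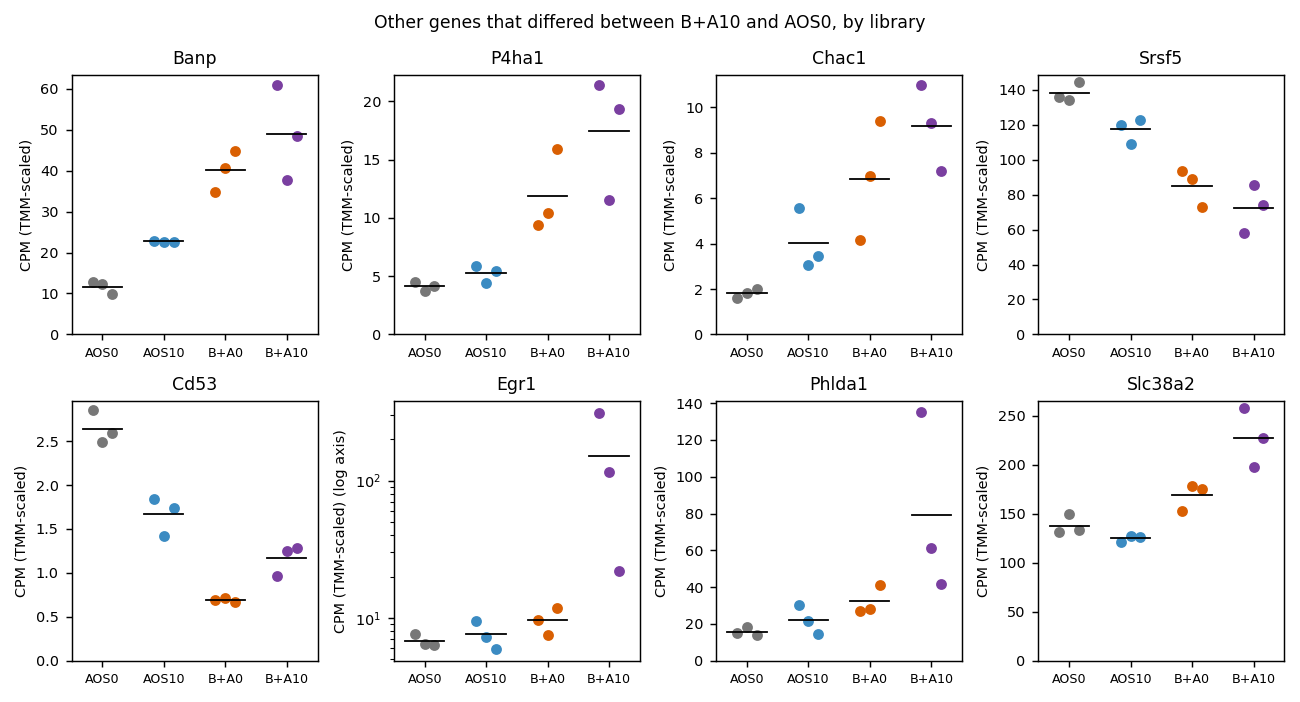
CPM by library (points) and group mean (bars) for 8 genes called in B+A10 outside the chaperone lists; the Egr1 axis is logarithmic and the others start at 0. Banp, P4ha1 and Chac1 are high in both busulfan groups, Srsf5 and Cd53 are low in both, and Egr1 and Phlda1 are highest in B+A10, with Egr1 running from 22.0 to 312 CPM there.

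The 25 falls included genes of splicing, white blood cells, Wnt reception and mitosis, with no list holding more than 1 of them. Srsf5, a splicing factor of the SR family, had the smallest p-value among them. It was at 136, 134 and 144 CPM in AOS0, 93.2, 88.8 and 72.9 CPM in B+A0 and 58.1, 85.2 and 73.9 CPM in B+A10. Both busulfan groups lay below AOS0, and the log2 fold change was -0.93 (adjusted p = 0.00639, SE 0.13) in B+A10 and -0.70 (adjusted p = 0.0191, SE 0.13) in B+A0. Another gene of arginine- and serine-rich proteins, Rsrp1, was at 151, 168 and 176 CPM in AOS0 and 108, 117 and 113 CPM in B+A10, a log2 fold change of -0.55 (adjusted p = 0.00787, SE 0.08).

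Cd53, a tetraspanin of white blood cells, was at 2.85, 2.49 and 2.59 CPM in AOS0, 0.69, 0.715 and 0.667 CPM in B+A0 and 0.97, 1.25 and 1.29 CPM in B+A10. The B+A10 libraries lay between the AOS0 and the B+A0 libraries without overlap. Its log2 fold change was -1.17 (adjusted p = 0.0279, SE 0.22) in B+A10 and -1.92 (adjusted p = 0.00429, SE 0.24) in B+A0, and the direct difference of 0.75 (adjusted p = 0.392, SE 0.25) was not called. The call was lost on leaving out AOS0 replicate 1, 2 or 3 (adjusted p = 0.117, 0.0827 and 0.0997), B+A10 replicate 1 (0.144) or B+A0 replicate 2 (0.0506). In RNA from tissue, fewer cells of a type and less RNA per cell cannot be told apart.

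Fzd6, a Wnt receptor, had the largest named fall: 4.66, 4.98 and 4.51 CPM in AOS0 and 1.33, 2.75 and 1.96 CPM in B+A10, a log2 fold change of -1.23 (adjusted p = 0.0305, SE 0.24). Serpinb5, a serpin of epithelial cells, fell from 2.85, 2.95 and 3.55 CPM to 1.46, 1.69 and 1.04 CPM, -1.15 (adjusted p = 0.041, SE 0.24). It was also below AOS0 in every AOS10 library, at 1.54, 2.14 and 1.67 CPM. Bora and Cdc25c, which promote entry into mitosis, had log2 fold changes of -0.75 (adjusted p = 0.0279, SE 0.14) and -0.73 (adjusted p = 0.0494, SE 0.16); Cdc25c was the only called gene of 31 cell cycle genes tested, whose median was -0.10, and Mki67 was at -0.14 (adjusted p = 0.789). Cdc25c was called in 5 and Bora in 10 of the 17 settings. Leaving out 1 library kept the Cdc25c call only for B+A10 replicate 3 (adjusted p otherwise from 0.0527 to 0.174), and the Bora call was lost for each AOS0 library and for B+A10 replicates 1 and 2 (from 0.0712 to 0.144). Fzd6 was called in 11 and Serpinb5 in 9 settings, and both calls were lost on leaving out any AOS0 library, B+A10 replicate 1 or B+A0 replicate 2, that of Serpinb5 also for B+A0 replicate 3.

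Among the other falls were Fdft1, the squalene synthase of cholesterol synthesis, at -0.62 (adjusted p = 0.0362, SE 0.12), and Sesn1, a p53-induced regulator of growth signalling, at -0.52 (adjusted p = 0.041, SE 0.11). Fdft1 was the only called gene of 31 cholesterol and fatty acid synthesis genes, though 28 of their estimates were below 0 (median -0.21). Their summed level was 4226, 4383 and 4362 CPM in AOS0 and 3414, 3603 and 3785 CPM in B+A10. AOS10 without busulfan was also below AOS0, at 3350, 3285 and 3998 CPM. B+A0, at 4248, 3864 and 4411 CPM, overlapped AOS0. Pop4, an RNase P subunit, was at 30.9, 31.3 and 31.4 CPM in AOS0 and 18.3, 23.4 and 21.3 CPM in B+A10, and at 20.8, 19.2 and 19.9 CPM in AOS10. Its log2 fold change was -0.57 (adjusted p = 0.0403, SE 0.12). Acot9, Rufy2, Glipr2, Tlr1, Retreg1, Fgfbp1, Vstm5 and Ift46 completed the named falls, with log2 fold changes from -0.79 in Acot9 to -0.43 in Ift46. Fdft1 was called in 12, Pop4 in 10 and Sesn1 in 9 of the 17 settings, and all 3 calls were lost on leaving out any AOS0 library or B+A10 replicate 1. Leaving out AOS0 replicate 3 left no fall in edgeR's test (Srsf5 then had an adjusted p of 0.0517), while DESeq2 on all libraries called 127. The count was 8 on leaving out AOS0 replicate 1, 4 for AOS0 replicate 2, 3 for B+A10 replicate 1, 13 for B+A0 replicate 2, 40 for B+A10 replicate 2 and 288 for B+A10 replicate 3.

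The groups of genes that fell in B+A0 were mostly not called in B+A10. Over the 223 genes lower in B+A0 only, the median log2 fold change was -1.23 in B+A0 and -0.45 in B+A10; 102 of them were lower in B+A10 at an unadjusted p under 0.05 and 147 differed between the busulfan groups at that level. Because these genes were chosen for their fall in B+A0, that count is a description of the same libraries. The 154 genes higher in B+A0 only had medians of 0.44 and 0.30.

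T and natural killer cell genes had the largest median difference between the busulfan groups of all lists. Of 33 listed genes 24 were tested, and none was called in B+A10 by edgeR's quasi-likelihood test or DESeq2, while 3 had an unadjusted p under 0.05 (15.7% of all genes did); the median was -0.53 and all 24 estimates were below 0. In B+A0 16 were lower, against 1.94% of all genes, with a median of -1.775. Between the busulfan groups all 24 were higher in B+A10, with a median difference of 1.16, 20 at an unadjusted p under 0.05, against 9.81% of all genes, and none called. The summed level of the 29 genes in the table was 444, 261 and 413 CPM in AOS0, 154, 95.1 and 65.7 CPM in B+A0 and 162, 418 and 202 CPM in B+A10. B+A10 replicate 2 was as high as untreated tissue, and replicates 1 and 3 were below every AOS0 library.

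Itgae, the integrin that holds T cells in the epithelium, was at 27.5, 16.2 and 21.4 CPM in AOS0, 7.65, 5.42 and 3.52 CPM in B+A0 and 10.1, 24.3 and 11.7 CPM in B+A10. Its log2 fold change against AOS0 was -0.50 (adjusted p = 0.483, SE 0.32), and against B+A0 1.47 (adjusted p = 0.255, SE 0.35). Cd4 was an exception in that its B+A10 libraries, at 0.606, 1.06 and 0.859 CPM, all lay below the AOS0 libraries at 3.89, 1.70 and 2.07 CPM; its log2 fold change of -1.60 (adjusted p = 0.12, SE 0.47) was not called. Cd3e was at -0.22 (adjusted p = 0.827, SE 0.38).

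Most mast cell genes had low estimates in B+A10 that did not pass the threshold. Of 16 mast cell and eosinophil genes 8 were tested, and none was called by edgeR's quasi-likelihood test in B+A10. In that test 5 had an unadjusted p under 0.05, against 15.7% of all genes, and DESeq2 called 4. Non-overlapping groups were found for 5, as for 8.60% of all genes in the lower direction. In B+A0 Mcpt1, Mcpt2, Mcpt4, Cpa3 and Kit were called lower by edgeR's test (adjusted p from 0.00625 to 0.0406), against 1.94% of all genes. The other tested members were not called there. The median over the 8 was -1.44 in B+A10 and -1.71 in B+A0. These 8 include Plppr3, a phospholipid phosphatase-related gene that is not a marker of these cells, at -0.21 in B+A10. They also include Ear2, which went the other way. It was at 0 CPM in every AOS0 library and 2.73, 0.688 and 0 CPM in B+A10, so its fold change could not be estimated. Mcpt1, a mucosal mast cell protease, was at 32.1, 39.1 and 85.4 CPM in AOS0, 6.40, 6.97 and 10.004 CPM in B+A0 and 8.37, 24.8 and 7.30 CPM in B+A10. The groups did not overlap, the log2 fold change was -1.95 (adjusted p = 0.0627, SE 0.45), and leaving out B+A10 replicate 2 made it -2.72 (adjusted p = 0.00878). Mcpt2 is a close relative, so reads may be divided between them; it was at 9.71, 15.3 and 33.2 CPM in AOS0 and 2.49, 8.63 and 2.27 CPM in B+A10. For Mcpt1 the direct difference from B+A0 was 0.79 (adjusted p = 0.613, SE 0.48).

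Tuft cell genes, which mark a rare chemosensory epithelial cell, also had mostly negative estimates. None of 16 tested was called in B+A10 by edgeR's quasi-likelihood test (1 by DESeq2), 9 had an unadjusted p under 0.05 (15.7% of all genes did) and 14 estimates were below 0; 11 had non-overlapping groups (17.9% of all genes did), of which Tas1r3, a taste receptor subunit, was higher in B+A10 at 0.57 and the other 10 lower. The median was -0.89 in B+A10 and -0.78 in B+A0. Trpm5, the tuft cell cation channel, was at 8.03, 7.48 and 7.62 CPM in AOS0 and 5.34, 4.31 and 3.31 CPM in B+A10, with a log2 fold change of -0.83 (adjusted p = 0.152, SE 0.27). Summed over 20 genes, the list was at 77.3, 85.1 and 86.6 CPM in AOS0 and 65.002, 68.4 and 58.03 CPM in B+A10. The AOS10 libraries, at 75.4, 58.3 and 100.1 CPM, overlapped both groups. A large part of these sums was the single gene Plcg2, with means of 36.2 CPM in AOS0 and 38.0 CPM in B+A10. Its log2 fold change was 0.07 (edgeR adjusted p = 0.817, SE 0.12).

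Xenobiotic metabolism genes of the enterocyte had a median near 0 in B+A10. None of 43 tested was called in B+A10 by edgeR's quasi-likelihood test (11 at an unadjusted p under 0.05, against 15.7% of all genes, and 1 by DESeq2) and the median was 0.01. In B+A0 8 were lower, against 1.94% of all genes, with a median of -0.51. Between the busulfan groups 40 of 43 estimates were higher in B+A10, 23 at an unadjusted p under 0.05, against 9.81% of all genes, and none was called. Cyp3a25, a cytochrome P450, was intermediate: 61.8, 105 and 65.3 CPM in AOS0, 33.4, 26.7 and 18.98 CPM in B+A0 and 41.2, 50.4 and 40.5 CPM in B+A10. Its B+A10 libraries were below all AOS0 libraries, the log2 fold change was -0.81 (adjusted p = 0.0927, SE 0.21), and DESeq2 gave it an adjusted p of 0.0114. Adh1, an alcohol and retinol dehydrogenase, was at 333, 458 and 383 CPM in AOS0, 206, 176 and 162 CPM in B+A0 and 336, 477 and 323 CPM in B+A10. It was -0.05 (adjusted p = 0.918, SE 0.16) against AOS0 and 1.06 (adjusted p = 0.0826, SE 0.16) against B+A0.

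Markers of the main epithelial lineages did not pass the threshold in B+A10. Log2 fold changes were 0.08 (adjusted p = 0.9, SE 0.23) for the crypt stem cell receptor Lgr5, -0.17 (adjusted p = 0.581, SE 0.14) for the goblet cell mucin Muc2 and 0.22 (adjusted p = 0.459, SE 0.13) for the endocrine granin Chga. Lyz1, the Paneth cell lysozyme, was at 2149.7, 2184 and 1349 CPM in AOS0 and 2258, 2347 and 2783 CPM in B+A10, 0.38 (adjusted p = 0.582, SE 0.30). The p53 target Cdkn1a was at 0.30 (adjusted p = 0.457, SE 0.18) and the clock output factor Tef at -0.76 (adjusted p = 0.172, SE 0.26). None of 28 DNA crosslink repair genes tested had an unadjusted p under 0.05 in edgeR's quasi-likelihood test.

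**Figure D4:**
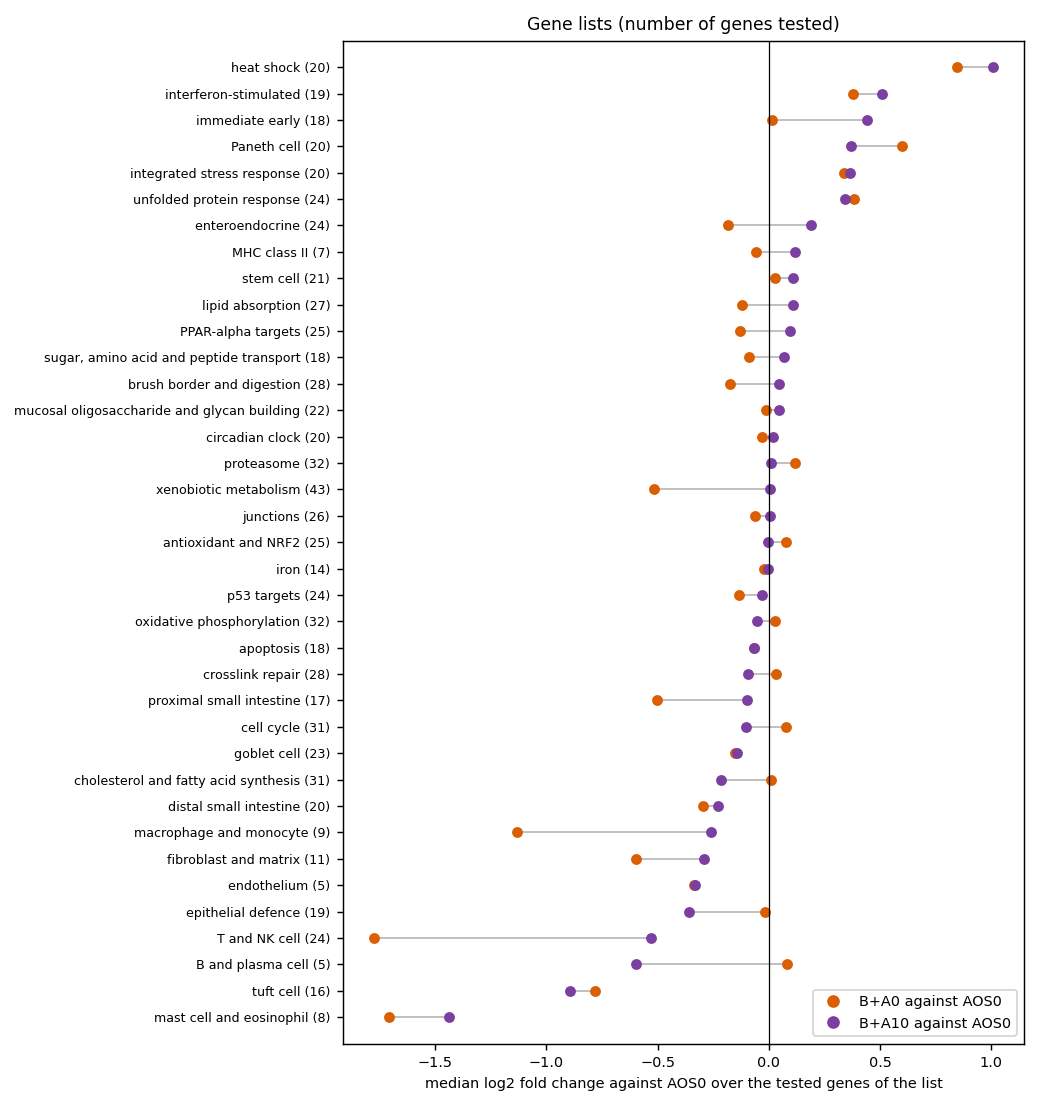
Median log2 fold change against AOS0 (x axis) over the tested genes of each gene list (rows, number tested in brackets), B+A0 in orange and B+A10 in purple, joined by a line; both share the AOS0 libraries. Heat shock and unfolded protein response medians lie close together, while the T and NK cell, macrophage and xenobiotic medians are nearer 0 in B+A10.

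**Figure D5:**
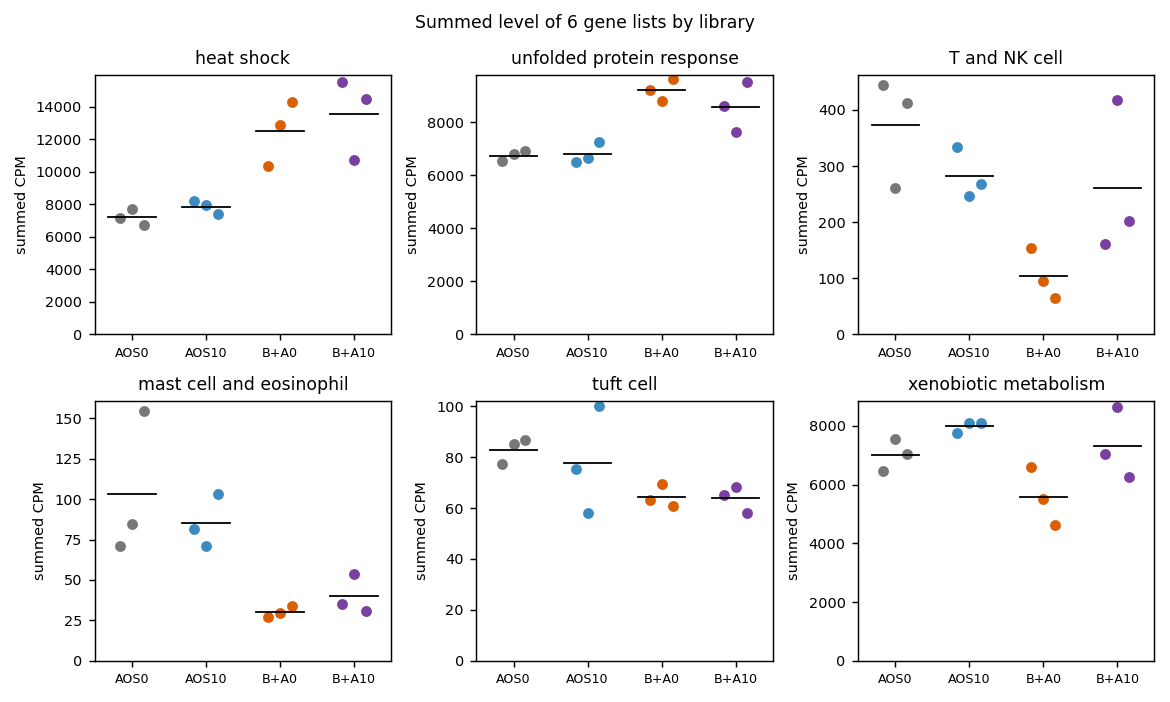
Summed CPM of 6 gene lists (y axes, linear from 0) in each library of the 4 groups, with group means as bars. The B+A10 libraries lie above AOS0 for the heat shock and unfolded protein response lists, below AOS0 for the mast cell and tuft cell lists, and on both sides of the AOS0 range for the xenobiotic list; for the T and NK cell list replicates 1 and 3 lie below AOS0 and replicate 2 within its range.

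Busulfan plus AOS was last set against AOS without busulfan, a contrast with other control libraries. It called 20 genes (0.162%), 18 higher (0.146%) and 2 lower (0.0162%) in B+A10, and 10.2% of genes had an unadjusted p under 0.05. Of the 118 genes called against AOS0, 17 were among them in the same direction, and 101 had an unadjusted p under 0.05 in that direction; both contrasts use the B+A10 libraries. AOS10 itself gave no call against AOS0 in edgeR's quasi-likelihood test, with 768 genes (6.23%) at an unadjusted p under 0.05 and a smallest adjusted p of 0.119.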

How the data were processed

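The authors deposited 1 table for the 12 libraries with expected counts (read counts per gene, about 9% of values not whole at a tolerance of 1e-06), per the file headers. The authors also deposited expression values, taken here to be FPKM (scaled by gene length and library total) because the ratio of count to value follows the library total, although the header names no unit. Per the submitters' processing notes the genome build is mm10; which aligner, counting tool, gene annotation and strand option were used is not given in the sources used here. Counts were rounded and fitted over all 4 groups (8 residual degrees of freedom) with edgeR 4.0.16 in R 4.3.3, using its expression filter, TMM scaling, the quasi-likelihood test and Benjamini-Hochberg adjustment over 12329 genes. A called gene has an adjusted p under 0.05. limma 3.58.1 on log2(FPKM + 1) and DESeq2 1.42.0 were alternatives, and the code was tested on simulated data. RefSeq GRCm38.p6 gave coordinates and promoters by gene ID (16835 of 16942 matched).

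Named genes were up to 10 of the largest rises and falls with at least 1 CPM, up to 4 called genes a list, up to 10 a direction called in both busulfan groups, and a fixed set; other list members are examples. The 41 lists and the rules were chosen with earlier results of these data known.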

Additional observations from a re-analysis of the deposited data

How the results depend on the processing

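Alternatives moved the number of calls and the balance of rises and falls. DESeq2 called 463 genes in B+A10 against AOS0 (336 higher, 127 lower) and 252 in both busulfan groups, and kept all 118. Fitting only the compared groups left 18 (16 higher, 2 lower) and 16 in both. limma on log2(FPKM + 1) called 50 higher and 48 lower. Replicate numbers did not deviate together between groups, with correlations from -0.162 to 0.173 over same-numbered pairs; with a replicate block 83 genes were called, 69 higher and 14 lower, and 40 in both. Leaving out 1 library gave 12 to 763 calls, 12 to 475 higher, 0 to 288 lower and 8 to 242 in both, with fewer samples in each fit; why single libraries differed this much was not tested. DESeq2 size factors (141 calls), no filter (151) and a stricter filter (132) stayed within 1.5 times the main count.

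None of the 40 called genes chosen by the naming rule changed sign under the 16 alternatives. With 1 library left out, the log2 fold change of 5 named genes that were not called changed sign. By the library left out, it ran for Adh1 from -0.235 (B+A10 replicate 2) to 0.096 (AOS0 replicate 2), for Cd3e from -0.763 (B+A10 replicate 2) to 0.018 (B+A10 replicate 3), for Lgr5 from -0.149 (AOS0 replicate 3) to 0.280 (AOS0 replicate 1), for Mki67 from -0.443 (B+A10 replicate 3) to 0.010 (B+A10 replicate 1) and for Vil1 from -0.030 (B+A10 replicate 2) to 0.188 (B+A10 replicate 3). Genes removed by the filter on low counts could not be called in either direction.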
